A study of Homo sapiens with 12 samples.

Results

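The genes described here encode the protein-folding machinery of the endoplasmic reticulum (ER) and the unfolded protein response. They were chosen by symbol: 32 genes were listed by function, and all 32 were found among the 19225 entries of the count table. Poly(A) RNA was sequenced from HN6 and HN30, 2 established cell lines that the study used as models of oral squamous cell carcinoma (OSCC), 24 h after lipid transfection of a control siRNA of scrambled sequence (NC), of siFAT1-1 or of siFAT1-2. Both of the latter target FAT1, which encodes an atypical cadherin. Each of the 6 conditions was repeated at 2 separate times, so that there were 12 libraries, 4 with NC and 8 with FAT1 knockdown. Every group carried siRNA and transfection reagent, untreated cells were not part of the comparison, and each line is 1 model. The question was whether GANAB, whose RNA was known from earlier results of these data to be higher after FAT1 knockdown, was accompanied by the other genes of ER folding.

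Proteins that enter the ER receive a preformed N-glycan capped with glucose residues. Glucosidase I, encoded by MOGS, and glucosidase II, a dimer of the catalytic subunit GANAB and the regulatory subunit PRKCSH, trim these glucoses, and the lectin chaperones calnexin (CANX) and calreticulin (CALR) hold the trimmed glycoprotein while the disulfide isomerase PDIA3 acts on it. UGGT1 adds a glucose back to proteins that are still misfolded, which returns them to the cycle. When misfolded proteins accumulate, the sensors IRE1 (gene ERN1), PERK (gene EIF2AK3) and ATF6 start the unfolded protein response: XBP1 and ATF6 induce chaperones such as HSPA5 and genes of ER-associated degradation, and PERK acts through ATF4 on DDIT3, TRIB3, ASNS and CHAC1.

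Levels are given in CPM, counts scaled to a common library size, after TMM normalization. Total counts ran from 26430049 to 47639010 per library, and the 32 genes held 0.765% to 1.49% of them. The lowest count of any of the 32 in any library was 104, so the spread between libraries rather than the depth limited their precision. All 32 passed the filter on low counts, which left 13887 genes for testing. Of 10 markers of squamous epithelium, 9 were at or above 1 CPM in every library, the exception being KRT14. Leukocyte markers summed to at most 15.0 CPM and endothelial markers to at most 7.87 CPM. The 6 fibroblast markers, of which COL1A1 alone was at or above 1 CPM in every library, summed to 66.5 to 70.6 CPM in the NC and 64.7 to 160 CPM in the knockdown libraries of HN6, and to 11.8 to 20.2 and 29.6 to 46.6 CPM in those of HN30. These sums were thus higher after knockdown in HN30, as GANAB was, and their part in the results was not tested.

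FAT1, the targeted gene, was lower in all 8 knockdown libraries than in both NC libraries of the same line. In HN6 it was at 56.8 and 66.7 CPM with NC, 7.61 and 13.5 CPM with siFAT1-1 and 13.2 and 21.4 CPM with siFAT1-2. In HN30, where it was lower from the start, the values were 13.6 and 14.7 CPM with NC, 4.86 and 6.26 CPM with siFAT1-1 and 10.8 and 7.74 CPM with siFAT1-2. Over both lines, FAT1 fell by 1.59 on the log2 scale (SE 0.308, adjusted p = 0.0404, edgeR quasi-likelihood test with Benjamini-Hochberg adjustment over all genes tested). With siFAT1-1 against siFAT1-2 the log2 difference was -0.73 (adjusted p = 0.119), so the siRNAs did not differ in their effect on FAT1 past the adjusted threshold.

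Before the comparisons, the 2 NC libraries of HN6 have to be set beside each other, because they stood apart on several of the genes. DNAJB9 was at 70.0 CPM at time 1 and 22.5 CPM at time 2, SEL1L at 152 and 60.9 CPM, and GANAB itself at 389 and 815 CPM. The first library was therefore the higher one for DNAJB9 and SEL1L and the lower one for GANAB, and values that depend on one of these libraries are given below with and without it.

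Levels per kilobase in the NC libraries were taken over the merged length of all annotated exons of a gene. This length can exceed that of the transcripts expressed, so the order between genes is approximate. By this measure CALR was the highest of the 32 in both lines (678 CPM per kb in HN6 and 386 in HN30). ERN1 was the lowest (1.01 and 0.735 CPM per kb). GANAB was the 7th in HN6 with 120 CPM per kb and the 12th in HN30 with 37.3 CPM per kb. PRKCSH, the partner of GANAB, was at 70.6 and 67.8 CPM per kb. With merged lengths of 5030 nt for GANAB and 5170 nt for PRKCSH, the catalytic subunit stood above its partner in HN6 and below it in HN30. Which transcripts were expressed was not examined, and this order could differ with their lengths.

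The RefSeq promoter windows of GANAB and HSPA5 are shown because the ER stress response element, the site at which ATF6 acts together with the factor NF-Y, is a defining feature of the classical targets of the response. Both lines below are the 250 bases before the transcription start site on GRCh38.p14, read 5′ to 3′ on the gene's strand, and capitals mark each CCAAT on either strand and, in HSPA5, the fixed letters of the ER stress response element.
GANAB (chr11:62646614-62646863, minus strand): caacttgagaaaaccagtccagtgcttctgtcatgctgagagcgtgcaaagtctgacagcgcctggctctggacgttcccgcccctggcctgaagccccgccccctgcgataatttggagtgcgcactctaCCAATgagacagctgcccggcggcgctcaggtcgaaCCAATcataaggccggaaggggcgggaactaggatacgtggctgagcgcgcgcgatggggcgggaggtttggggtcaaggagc
HSPA5 (chr9:125241344-125241593, minus strand): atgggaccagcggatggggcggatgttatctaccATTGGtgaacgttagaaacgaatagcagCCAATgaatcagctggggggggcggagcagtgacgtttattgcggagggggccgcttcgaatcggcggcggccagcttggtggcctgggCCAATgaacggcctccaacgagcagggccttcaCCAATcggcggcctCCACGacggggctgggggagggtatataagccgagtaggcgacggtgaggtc
The window of GANAB held 2 CCAAT words and no match to the element, and that of HSPA5 held 4 CCAAT words, the last of which began the element. The absence of a match says only that these letters were not in this window.

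A window, with 250 bases before and 50 after the start site, was found for 30 of the 32 genes, MOGS and PDIA3 being those without one. The element was searched on both strands as CCAAT, 9 bases of any kind and CCACG, and was present for 7 of the 30 genes (23.3%), against 0.0916% of the 27305 genes with at least 1 window, a gene counting once if any of its windows held the letters. These were CALR, CANX, PDIA6, HSPA5, HSP90B1, CRELD2 and XBP1. The related element ERSE-II, searched as ATTGG, 1 base of any kind and CCACG, was present for HYOU1, SDF2L1 and HERPUD1, 3 of the 30 genes against 0.0696% of all genes with a window. The 8 matches of the first kind and the 4 of the second are short enough to compare, and some are printed here with the fixed letters in capitals, as read in the orientation of the element.
HSPA5, from -66 to -48 relative to the start site (chr9:125241391-125241409): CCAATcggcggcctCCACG
HSP90B1, from -194 to -176 (chr12:103930216-103930234): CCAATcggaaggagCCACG
HSP90B1, from -89 to -71 (chr12:103930321-103930339): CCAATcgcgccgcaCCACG
CALR, from -225 to -207 (chr19:12938384-12938402): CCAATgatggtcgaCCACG
XBP1, from -52 to -34 (chr22:28800603-28800621): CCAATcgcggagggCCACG
HYOU1, ERSE-II, from -79 to -69 (chr11:119057274-119057284): ATTGGaCCACG
HERPUD1, ERSE-II, from -117 to -107 (chr16:56932025-56932035): ATTGGgCCACG
The amino acid response word TGATGNAA, bound by ATF4 with a partner, was found for ASNS, CHAC1 and HERPUD1, again 3 of the 30 genes, against 4.46% of all genes with a window. The UPRE word TGACGTGG was found for HYOU1 alone, against 0.927% of all genes with a window, and it overlapped one of its ERSE-II matches. CCAAT by itself was common, in 24 of the 30 genes (80.0%) and 39.7% of all genes with a window. These matches are a description of sequence and not of binding. The 32 genes were listed by function, and the element is a defining feature of classical targets among them. Its higher share than in all genes therefore gives no independent support.

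GANAB was the 1 gene of the 32 that passed the adjusted threshold after FAT1 knockdown. In HN6 it was at 389 and 815 CPM with NC, 1213 and 1284 CPM with siFAT1-1 and 926 and 1141 CPM with siFAT1-2. In HN30 it was at 211 and 164 CPM with NC, 554 and 564 CPM with siFAT1-1 and 488 and 624 CPM with siFAT1-2. All 8 knockdown libraries were above both NC libraries of their line, a pattern that 2.29% of all genes tested showed in this direction and that none of the other 31 genes showed. Over both lines GANAB was 2.35-fold higher (log2 fold change 1.24, SE 0.217, 95% interval 0.77 to 1.70, adjusted p = 0.0242), while 0.547% of all genes tested passed the same threshold in either direction. GANAB had the 42nd smallest P and the 255th largest rise of all genes tested. Because GANAB was in view for its rise when the 32 genes were listed, these values describe it and give no independent support.

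GANAB was higher with each siRNA and, with no adjusted call within a line, in each line. With siFAT1-1 the log2 fold change was 1.30 (SE 0.236, adjusted p = 0.0125) and with siFAT1-2 it was 1.17 (SE 0.236, adjusted p = 0.0109), both against the same NC libraries. The call with siFAT1-1 was lost when any 1 of 3 libraries was left out, with adjusted p of 0.0546 without HN30 NC of time 1 and of 0.0507 and 0.0537 without HN30 siFAT1-1 of time 1 and of time 2. That with siFAT1-2 held in all 12 such fits, with adjusted p of at most 0.0423. The siRNAs differed by 0.13 on the log2 scale (95% interval -0.37 to 0.63, adjusted p = 0.728). Within HN6 the fold change was 0.92 (SE 0.279, adjusted p = 0.222) and within HN30 1.57 (SE 0.290, adjusted p = 0.0900). The difference between the lines of 0.66 did not pass the test (adjusted p = 0.974). Few genes of any kind passed here: 0.00720% of all genes tested within HN6, 0.0576% within HN30 and 0 for the difference. FAT1 itself did not pass within HN6 (adjusted p = 0.0558) or HN30 (adjusted p = 0.204). The size of the GANAB value in HN6 turned on the NC libraries, since it was 0.47 without the NC library of time 1 and 1.52 without that of time 2. Over both lines the adjusted p of GANAB rose above 0.05 when any 1 of 6 libraries was left out. It was 0.103 without HN6 NC of time 1, 0.0598 without HN6 siFAT1-1 of time 2, 0.153 and 0.0869 without HN30 NC of time 1 and of time 2, and 0.0509 and 0.0567 without HN30 siFAT1-1 of time 1 and of time 2. The log2 fold change stayed between 1.09 and 1.55 in all 12 such fits.

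**Figure D1:**
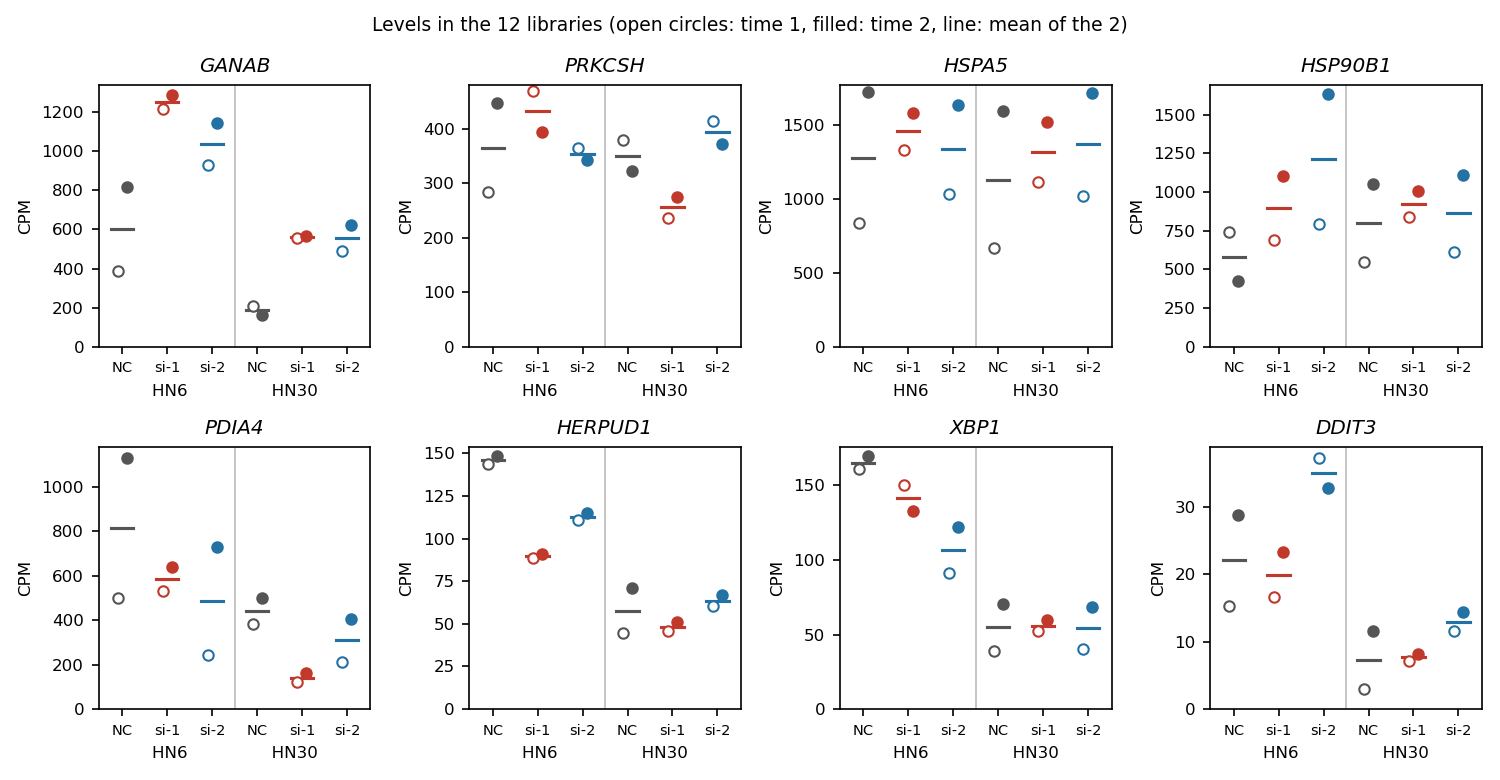
Level in CPM (vertical axis, from 0) of 8 genes in the 12 libraries, by cell line and siRNA (horizontal axis). Open circles are time 1, filled circles time 2, and a line is the mean of the 2. GANAB sits above both NC libraries of its line in all 8 knockdown libraries, while for PRKCSH, HSPA5 and the other genes the knockdown libraries overlap the NC libraries in at least 1 line.

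PRKCSH, which binds GANAB and retains it in the ER, gave no call. It was at 283 and 447 CPM with NC in HN6, 469 and 394 CPM with siFAT1-1 and 364 and 343 CPM with siFAT1-2. In HN30 the values were 379 and 322 CPM, 237 and 275 CPM, and 414 and 373 CPM, in the same order. The groups overlapped in both lines, and the log2 fold change was -0.00 with a 95% interval of -0.40 to 0.39. The ratio of the CPM of GANAB to that of PRKCSH was therefore 1.37 and 1.82 in the NC libraries of HN6 and 2.54 to 3.33 in its knockdown libraries. In HN30 it was 0.556 and 0.511 with NC and 1.18 to 2.34 after knockdown.

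The rest of the calnexin and calreticulin cycle likewise gave no adjusted call for knockdown. The log2 fold changes over both lines were -0.15 for MOGS, -0.21 for UGGT1, -0.26 for CALR, 0.24 for CANX and 0.04 for PDIA3, with standard errors from 0.134 to 0.273. Of the 3 disulfide isomerases outside the cycle, PDIA6 was at -0.05 and P4HB at -0.11. PDIA4 had the lowest value of the 32, -0.79 (SE 0.342, adjusted p = 0.316), and its 95% interval ran from -1.53 to -0.05. It was at 384 and 501 CPM in the NC libraries of HN30, 122 and 161 CPM with siFAT1-1 and 213 and 407 CPM with siFAT1-2. In HN6 it was at 500.1 and 1131 CPM with NC, 530 and 642 CPM with siFAT1-1 and 243 and 730.3 CPM with siFAT1-2, so that the NC libraries spanned all but 1 of the 4 others.

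HSPA5, the main ER chaperone (BiP) and a standard reporter of the response, was at 835 and 1720 CPM with NC in HN6, 1331 and 1581 CPM with siFAT1-1 and 1035 and 1635 CPM with siFAT1-2. In HN30 it was at 669 and 1592 CPM with NC, 1115 and 1521 CPM with siFAT1-1 and 1021 and 1716 CPM with siFAT1-2. In both lines the NC libraries spanned nearly the whole range of the knockdown libraries, and in every condition the library of time 2 was the higher one. The log2 fold change after knockdown was 0.19 (SE 0.260, adjusted p = 0.769) with a 95% interval of -0.37 to 0.75. HSP90B1, the ER member of the HSP90 family, was at 743 and 424 CPM with NC in HN6, 693 and 1102 CPM with siFAT1-1 and 795 and 1635 CPM with siFAT1-2. Its HN30 values were 548 and 1054 CPM with NC, 839 and 1010.2 CPM with siFAT1-1 and 612 and 1112 CPM with siFAT1-2. The groups overlapped in both lines, and over both lines the log2 fold change was 0.49 (SE 0.292, adjusted p = 0.459). The exons of HSP90B1 overlap those of UQCC6 on the opposite strand, and whether counting used strand is not given in the sources used here.

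The other 7 chaperones and co-chaperones gave log2 fold changes between -0.41 for HYOU1, a nucleotide exchange factor of HSPA5, and 0.21 for DNAJC3. DNAJB9, a co-chaperone induced through XBP1, was at 70.0 and 22.5 CPM with NC in HN6, 43.8 and 49.1 CPM with siFAT1-1 and 52.9 and 61.5 CPM with siFAT1-2. In HN30 it was at 42.9 and 58.4 CPM with NC, 41.3 and 48.7 CPM with siFAT1-1 and 49.1 and 52.5 CPM with siFAT1-2. The NC libraries enclosed every knockdown library in HN6 and all but 1 in HN30. SDF2L1 (-0.25), MANF (-0.19), CRELD2 (0.07) and DNAJB11 (0.17) had standard errors of 0.213 to 0.266 and none had an unadjusted P under 0.05.

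Among genes of ER-associated degradation, HERPUD1, a membrane protein of the degradation complex, was lower after knockdown in HN6 without overlap. It was at 144 and 149 CPM with NC, 88.7 and 91.2 CPM with siFAT1-1 and 111 and 115 CPM with siFAT1-2. In HN30 the same gene was at 44.5 and 71.0 CPM with NC, 45.6 and 51.2 CPM with siFAT1-1 and 60.3 and 67.0 CPM with siFAT1-2, so that the groups overlapped. Its log2 fold change was -0.54 in HN6 (adjusted p = 0.275) and -0.29 over both lines (SE 0.176, adjusted p = 0.467). EDEM1, which delivers misfolded glycoproteins for degradation, had a value of -0.43 (SE 0.190, adjusted p = 0.330). It was at 85.1 and 71.5 CPM with NC in HN6, 55.2 and 73.2 CPM with siFAT1-1 and 54.2 and 63.9 CPM with siFAT1-2. Its HN30 values were 120 and 158 CPM with NC, 73.9 and 76.9 CPM with siFAT1-1 and 97.8 and 144 CPM with siFAT1-2. Only 1 knockdown library in each line reached the range of its NC libraries. SEL1L and SYVN1, the core of the ubiquitin ligase complex, had values of 0.41 (SE 0.267) and 0.09 (SE 0.145).

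The sensors and the factors below them gave no call either. ERN1 (-0.37, SE 0.263), EIF2AK3 (-0.01, SE 0.191) and ATF6 (-0.04, SE 0.191) had adjusted p of 0.538 or above. ERN1 was at 17.3 and 21.5 CPM with NC in HN6, 14.1 and 13.8 CPM with siFAT1-1 and 7.12 and 16.0 CPM with siFAT1-2, without overlap. In HN30, where the groups overlapped, it was at 11.2 and 16.9 CPM with NC, 16.6 and 15.4 CPM with siFAT1-1 and 7.99 and 11.6 CPM with siFAT1-2. XBP1, the factor whose mRNA ERN1 splices, was at 161 and 169 CPM with NC in HN6, 150.3 and 133 CPM with siFAT1-1 and 91.5 and 122 CPM with siFAT1-2, again without overlap. In HN30 it was at 39.3 and 70.7 CPM with NC, 52.3 and 59.7 CPM with siFAT1-1 and 40.4 and 68.4 CPM with siFAT1-2, and the NC libraries enclosed all 4 others. Its log2 fold change over both lines was -0.21 (SE 0.204, adjusted p = 0.665). Gene counts do not show the splicing of XBP1 mRNA, the activity of the sensors or the cleavage of ATF6.

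On the PERK and ATF4 side, the log2 fold change of ATF4 was -0.10 (SE 0.153, adjusted p = 0.808). It was at 476 and 495 CPM with NC in HN6, 370.1 and 349 CPM with siFAT1-1 and 516 and 373 CPM with siFAT1-2, and at 233 and 229.6 CPM, 212 and 211 CPM, and 275 and 285 CPM in HN30. The siFAT1-1 libraries lay below both NC libraries in both lines, and in HN30 those with siFAT1-2 lay above them. DDIT3, which encodes the stress factor CHOP, was at 15.3 and 28.8 CPM with NC in HN6, 16.6 and 23.3 CPM with siFAT1-1 and 37.2 and 32.8 CPM with siFAT1-2. Its HN30 values were 2.94 and 11.6 CPM with NC, 7.18 and 8.23 CPM with siFAT1-1 and 11.6 and 14.3 CPM with siFAT1-2. The siFAT1-2 libraries thus lay above both NC libraries in HN6 and level with or above the higher one in HN30, and those with siFAT1-1 lay between the NC libraries. Over both siRNAs the log2 fold change was 0.41 (SE 0.357, adjusted p = 0.623). TRIB3 (0.08, SE 0.336), ASNS (0.17, SE 0.378), an amino acid synthetase, and CHAC1 (-0.44, SE 0.268), a glutathione-degrading enzyme, had adjusted p of 0.473 or above. TRIB3, which inhibits the kinase AKT, was at 77.4 and 146 CPM with NC in HN6, 140.3 and 108 CPM with siFAT1-1 and 70.0 and 112 CPM with siFAT1-2, and at 36.8 and 64.9 CPM, 70.5 and 92.7 CPM, and 21.3 and 50.4 CPM in HN30. ASNS was at 30.5 and 87.0 CPM, 63.5 and 58.9 CPM, and 32.1 and 75.1 CPM in the same order in HN6, and at 29.0 and 55.1 CPM, 52.7 and 77.4 CPM, and 19.4 and 69.7 CPM in HN30. CHAC1 was at 8.81 and 22.3 CPM, 9.71 and 6.91 CPM, and 12.3 and 12.3 CPM in HN6, and at 5.60 and 8.54 CPM, 4.49 and 5.67 CPM, and 6.89 and 6.20 CPM in HN30. For all 3 the NC libraries overlapped the knockdown libraries in both lines. The exons of DDIT3 overlap those of MARS1 on the opposite strand and ASNS has 4 annotated pseudogenes, so their counts carry this uncertainty.

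Taken by count, 1 of the 32 genes was higher (GANAB) and 2 were lower (PDIA4 and EDEM1) at an unadjusted P under 0.05, against 6.77% of all genes tested that were higher and 7.75% that were lower. The median log2 fold change of the 32 was -0.02, and that of the 31 without GANAB -0.04, beside 0.02 over all genes tested. Of the 32, 14 lay above 0 and 18 below. Their median absolute log2 fold change was 0.20, beside 0.28 over all genes tested. All genes tested were filtered at a minimum count of 10, while the lowest count among the 32 was 104. These 2 medians were not matched for level. Of the 10 genes with an element of either kind in the promoter window, the median was -0.13 and none had an unadjusted P under 0.05. The median was 0.07 for the 7 with the ER stress response element and -0.29 for the 3 with ERSE-II. For the 20 with neither it was -0.0046. Differences between these classes were not tested. Since levels are relative to all RNA of a library, fewer cells with a transcript and less of it per cell cannot be told apart in any of these values.

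**Figure D2:**
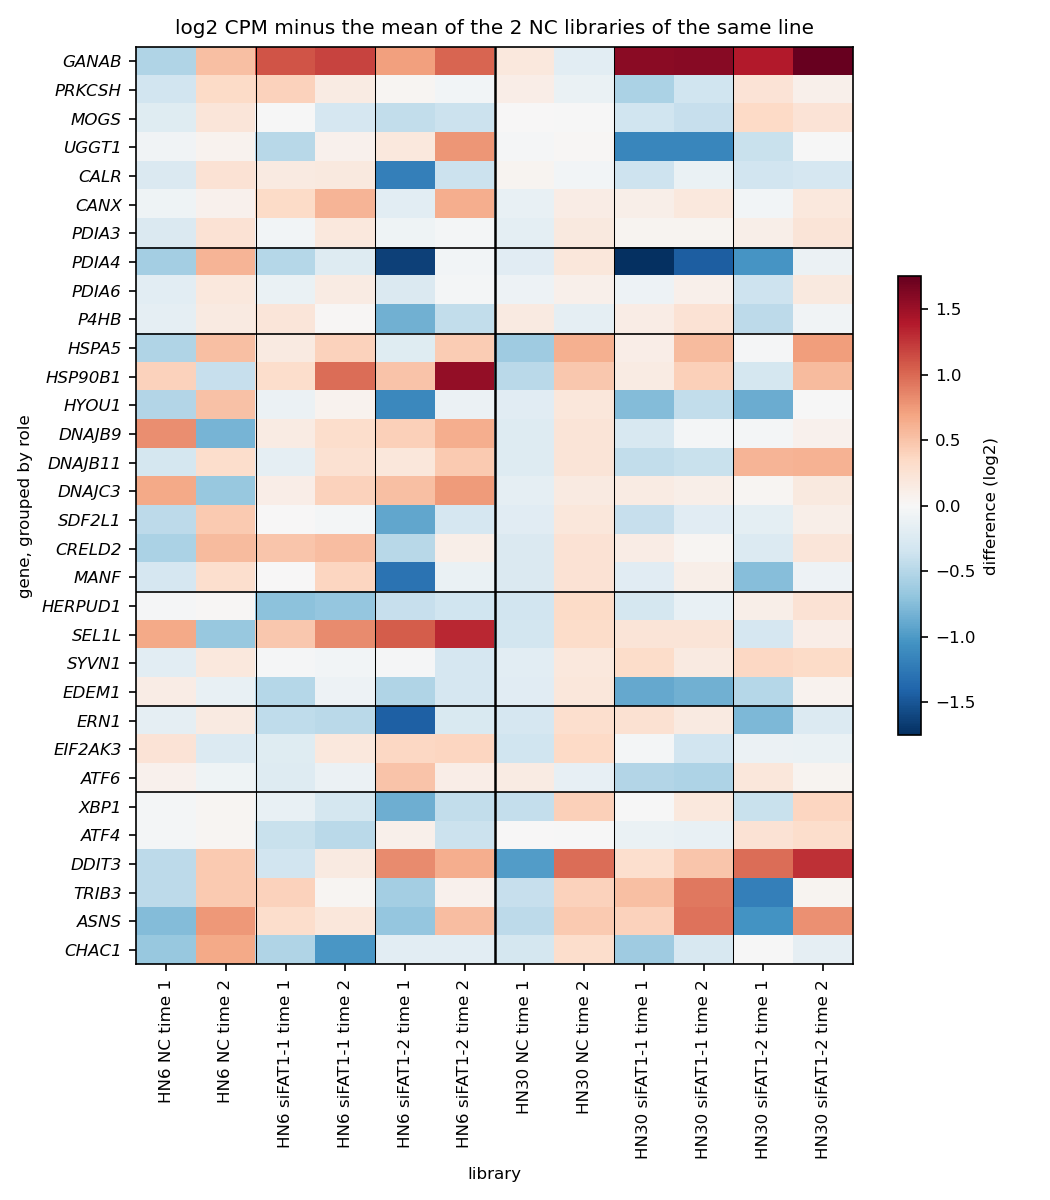
Difference in log2 CPM of each of the 32 genes (rows, grouped by role) from the mean of the 2 NC libraries of the same line, in the 12 libraries (columns). Red is higher and blue lower; GANAB is the 1 row that is red in all 8 knockdown libraries and above both NC libraries of its line, while most other rows are of mixed colour.

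**Figure D3:**
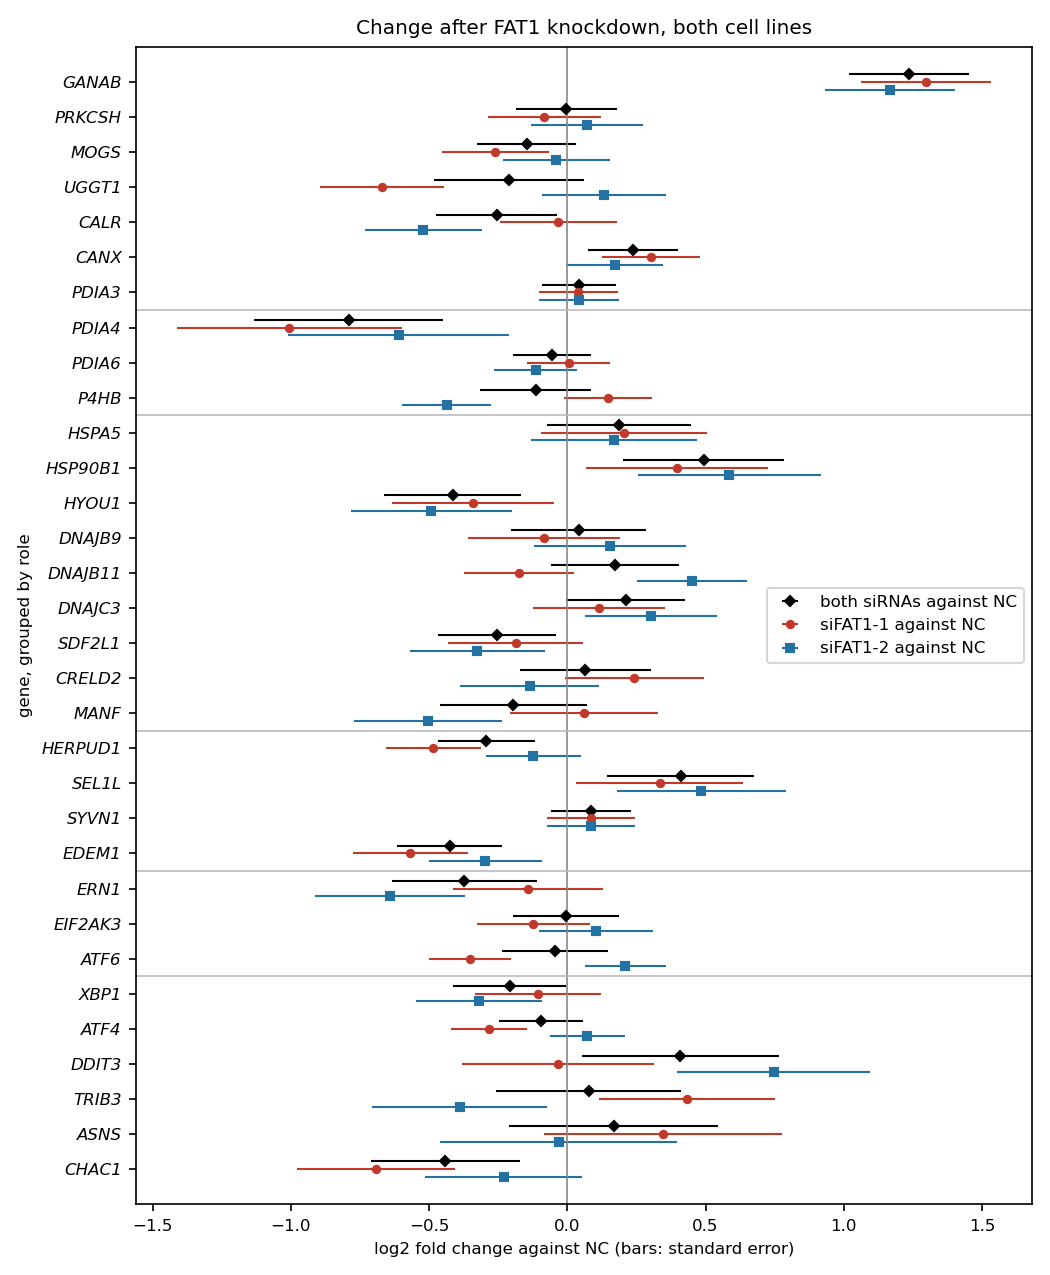
Log2 fold change against NC over both cell lines (horizontal axis) with its standard error (bars) for the 32 genes (vertical axis, grouped by role). Black is both siRNAs, red siFAT1-1 and blue siFAT1-2; GANAB lies at 1.24, 1.30 and 1.17, and the highest other value with both siRNAs is 0.49 for HSP90B1.

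With each siRNA taken alone, GANAB was again the 1 gene of the 32 past the adjusted threshold, while 3.25% of all genes tested passed it with siFAT1-1 and 11.8% with siFAT1-2. With siFAT1-1, 1 gene was higher and 6 were lower at an unadjusted P under 0.05, against 8.81% and 10.2% of all genes tested. The 6 were UGGT1 (-0.67, adjusted p = 0.133), PDIA4 (-1.01, adjusted p = 0.206), HERPUD1 (-0.49, adjusted p = 0.155), EDEM1 (-0.57, adjusted p = 0.163), ATF6 (-0.35, adjusted p = 0.221) and CHAC1 (-0.69, adjusted p = 0.216). With siFAT1-2, GANAB and DNAJB11 (0.45, adjusted p = 0.157) were higher and CALR (-0.52, adjusted p = 0.130), P4HB (-0.44, adjusted p = 0.0984) and ERN1 (-0.64, adjusted p = 0.143) were lower, against 12.9% and 16.0% of all genes tested. In the fit with the repeat as a block, 8 genes in place of 5 had an unadjusted P under 0.05 with siFAT1-2, against 30.6% of all genes tested in that fit and 28.9% without the block. Without the block, none of the 32 apart from GANAB had an unadjusted P under 0.05 with both siRNAs. The share of all genes tested that did was not counted. A P under 0.05 with 1 siRNA alone is no test of a difference between the siRNAs.

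The difference between the siRNAs was tested directly, by siFAT1-1 against siFAT1-2, and 4 of the 32 passed the adjusted threshold. P4HB, the beta subunit of prolyl hydroxylase and a disulfide isomerase, was higher with siFAT1-1 by 0.58 (adjusted p = 0.0290), while UGGT1 (-0.80, adjusted p = 0.0294), DNAJB11 (-0.63, adjusted p = 0.0495) and ATF6 (-0.56, adjusted p = 0.0234) were lower. Of all genes tested, 17.4% passed in either direction. UGGT1 was at 85.6 and 93.5 CPM with NC, 64.0 and 94.6 CPM with siFAT1-1 and 101 and 153 CPM with siFAT1-2 in HN6, and at 153 and 157 CPM, 70.3 and 70.1 CPM, and 118 and 154 CPM in HN30. P4HB was at 2173 and 2695 CPM, 2808 and 2452 CPM, and 1348 and 1802 CPM in the same order in HN6, and at 914 and 731 CPM, 897 and 974 CPM, and 597 and 786 CPM in HN30. In both lines the siRNAs did not overlap for either gene. ATF6 was at 62.2 and 56.1 CPM, 50.4 and 54.9 CPM, and 83.2 and 63.8 CPM in HN6, and at 106 and 86.4 CPM, 66.8 and 65.6 CPM, and 109 and 98.5 CPM in HN30. DNAJB11, a co-chaperone of HSPA5, was at 169 and 257 CPM, 187 and 251 CPM, and 238 and 285 CPM in HN6, and at 85.0 and 117 CPM, 74.3 and 76.4 CPM, and 151 and 153 CPM in HN30. The siRNAs did not overlap for ATF6 in either line and overlapped for DNAJB11 in HN6. A further 4 genes had an unadjusted P under 0.05 in this comparison and missed the adjusted threshold: CALR (0.49, adjusted p = 0.131) and TRIB3 (0.82, adjusted p = 0.0941) were higher with siFAT1-1, and ATF4 (-0.36, adjusted p = 0.0894) and DDIT3 (-0.78, adjusted p = 0.138) were lower. CALR was at 1564 and 2234 CPM with NC in HN6, 2088 and 2108 CPM with siFAT1-1 and 812 and 1436 CPM with siFAT1-2. The calls depended on single libraries: none of the 32 genes passed without HN6 siFAT1-1 of time 1 or either HN30 siFAT1-1 library, 1 without HN30 siFAT1-2 of time 1, and 2 without HN6 siFAT1-2 of time 1 or HN30 siFAT1-2 of time 2. Over all genes tested the share that passed ran from 7.36% to 24.0% in the 12 fits without 1 library. With the repeat as a block, 6 genes passed, against 18.2% of all genes tested in that fit.

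Within HN6 alone, GANAB and SEL1L (0.78, adjusted p = 0.347) were higher and HERPUD1 was lower at an unadjusted P under 0.05, against 5.72% and 8.39% of all genes tested. None of the 32 passed the adjusted threshold, which 0.00720% of all genes tested passed. GANAB was the 1 gene higher without overlap (6.91% of all genes tested) and HERPUD1, ERN1 and XBP1 were the 3 lower without overlap (9.23%). SEL1L illustrates how the NC libraries of HN6 set a value: it was at 152 and 60.9 CPM with NC and 133 to 239.5 CPM after knockdown. Beside NC of time 2 alone, GANAB, HSP90B1, DNAJB9, DNAJC3, SEL1L and EIF2AK3 were higher in all 4 knockdown libraries of HN6. Lower in all 4 were MOGS, CALR, PDIA3, PDIA4, PDIA6, HSPA5, HYOU1, SDF2L1, CRELD2, HERPUD1, SYVN1, ERN1, XBP1, TRIB3, ASNS and CHAC1. The shares of all genes tested with these patterns were not counted. A fit without 1 NC library of HN6 takes its spread from the other 5 conditions. Within HN30, GANAB was higher and UGGT1 (-0.67, adjusted p = 0.230), PDIA4 (-1.08, adjusted p = 0.301) and EDEM1 (-0.54, adjusted p = 0.291) were lower, against 5.16% and 9.07% of all genes tested. GANAB alone was higher without overlap there (9.79% of all genes tested), and CALR alone was lower without overlap (11.1%), at 1117 and 1047 CPM with NC, 841 and 996 CPM with siFAT1-1 and 858 and 882 CPM with siFAT1-2. The difference of the knockdown effect between the lines had an unadjusted P under 0.05 for UGGT1 alone, which was lower in HN30 by 0.83 more on the log2 scale (adjusted p = 0.974). That is 1 of the 32 genes, against 2.07% of all genes tested that were lower. Without HN6 NC of time 1, 3 genes (GANAB, DNAJB9 and SEL1L) passed the adjusted threshold for this difference, against 6.30% of all genes tested.

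Between the lines, over all 12 libraries, 19 of the 32 genes (59.4%) differed at an adjusted p under 0.05, near the 56.9% of all genes tested. By direction, 17 of the 32 were lower and 2 higher in HN30 than in HN6, against 28.8% and 28.2% of all genes tested. The median log2 difference of the 32 was -0.60, beside -0.00 over all genes tested. All 3 disulfide isomerases outside the cycle were lower in HN30: P4HB fell by 1.41 on the log2 scale, PDIA6 by 1.27 and PDIA4 by 1.19. GANAB was lower by 2.37-fold (log2 difference -1.25, SE 0.193, adjusted p = 0.000175), so that its knockdown level in HN30, 488 to 624 CPM, lay within the range of the NC libraries of HN6. Of the stress factors and their targets, DDIT3 (-1.47), XBP1 (-1.30), TRIB3 (-1.03), CHAC1 (-0.92) and ATF4 (-0.83) were lower in HN30. EDEM1 (0.70) and ATF6 (0.51) were the 2 that were higher. The chaperones HSPA5 and HSP90B1 differed by -0.09 and 0.00, with standard errors of 0.245 and 0.268. Lines differ in origin and genome and each was 1 line, so this describes these lines only.

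**Figure D4:**
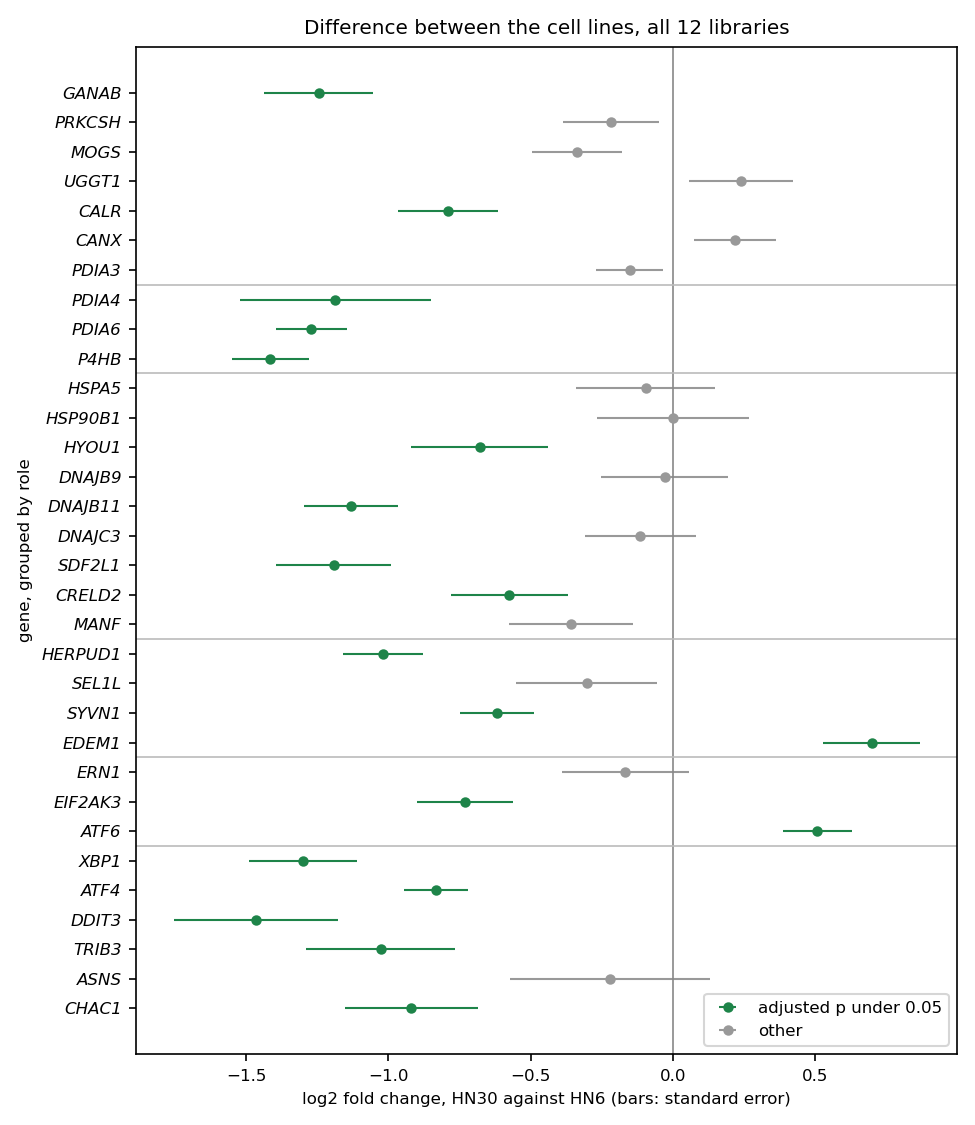
Log2 fold change of HN30 against HN6 over all 12 libraries (horizontal axis) with its standard error (bars) for the 32 genes (vertical axis, grouped by role). Green marks an adjusted p under 0.05, which 17 genes reached to the left of 0 and 2, EDEM1 and ATF6, to the right.

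The 2 repeats of a condition differed in the same direction for many of the genes, which led to a comparison of time 2 with time 1 that was added after the values had been seen. By the labels the conditions of a line share their times, and the test treats the 6 differences as independent. Its P-values therefore describe these libraries and not repeats of the difference between times. Over the 6 conditions, 14 of the 32 genes were higher at time 2 at an unadjusted P under 0.05 and none lower, against 7.94% and 6.81% of all genes tested. None passed the adjusted threshold, at which no gene of the table did with edgeR, and with DESeq2 5 of the 32 did (HSPA5, HYOU1, PDIA4, MANF and ASNS), against 2.50% of all genes tested. On data simulated for the knockdown comparison, and not for that of the times, DESeq2 made 37 false calls where edgeR made 6. There DESeq2 recovered 49% of genes changed by 1 on the log2 scale and 92% of those changed by 2. With edgeR these shares were 23% and 84%. HSPA5 was higher in all 6 conditions, by 0.25 to 1.25 on the log2 scale, with a common value of 0.73 (SE 0.144, adjusted p = 0.265). Its nucleotide exchange factor HYOU1 (0.63, adjusted p = 0.265), PDIA4 (0.79, adjusted p = 0.265) and MANF, a secreted ER protein (0.60, adjusted p = 0.265), were also higher in all 6, as were CANX, PDIA6, DNAJB11 and HERPUD1. These are 8 of the 32 genes, against 4.39% of all genes tested. ASNS had the largest common value, 0.99 (SE 0.241, adjusted p = 0.265), and was higher in 5 of the 6 conditions. The other 9 of the 14 were TRIB3 (0.62), DDIT3 (0.60), CRELD2 (0.44), SDF2L1 (0.39), XBP1 (0.35), CANX (0.30), DNAJB11 (0.30), PDIA6 (0.29) and UGGT1 (0.28), with adjusted p from 0.267 to 0.335.

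The median difference between the times was 0.28 over the 32 genes and -0.00 over all genes tested, with 28 of the 32 above 0. By role it was 0.44 for the 9 chaperones and co-chaperones, 0.48 for the 6 transcription factors and stress targets, 0.13 for the 4 genes of ER-associated degradation and 0.05 for the 3 sensors. GANAB differed by 0.24 (SE 0.169, adjusted p = 0.509) and PRKCSH by 0.02. Of the 10 genes with an element of either kind in the promoter window, 7 had an unadjusted P under 0.05, all higher, with a median of 0.37, and of the 20 without one 7 did, with a median of 0.24. This difference was not tested. The NC pair of HN6 went the other way for DNAJB9 (-1.63), SEL1L (-1.32), DNAJC3 (-1.31) and HSP90B1 (-0.81), while its HSPA5 was higher at time 2, by 1.04. Leaving out 1 library of a pair lowered the count of 14 to 8 without HN30 siFAT1-2 of time 1 and to 9 without HN6 siFAT1-1 of time 1, either HN6 siFAT1-2 library, either HN30 NC library or HN30 siFAT1-2 of time 2, all of the remaining genes being higher, while 4.34% to 9.29% of all genes tested were higher in the 12 fits without 1 library. What differed between the times is not given in the sources used here.

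**Figure D5:**
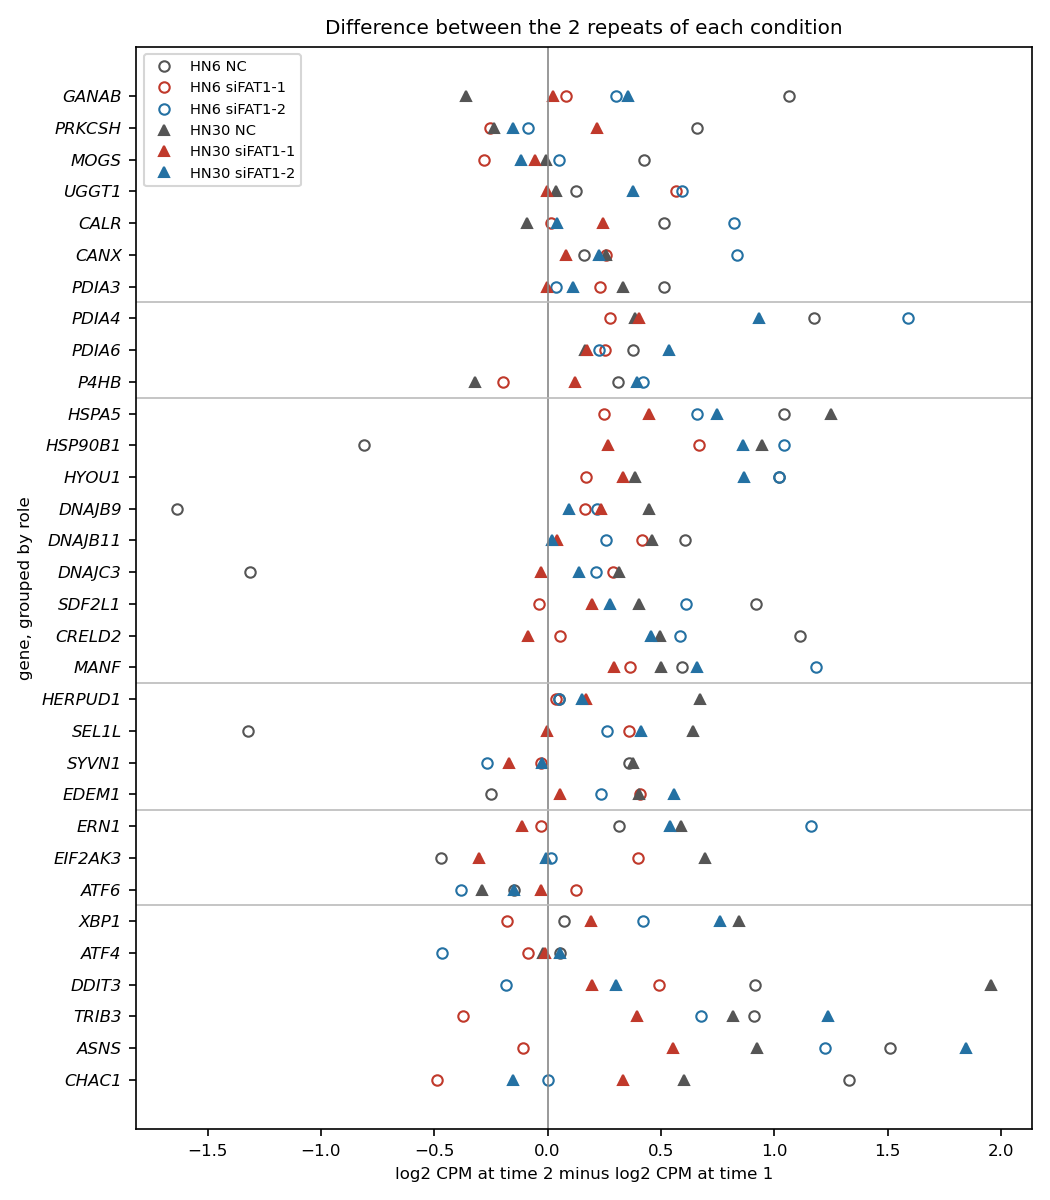
Log2 CPM at time 2 minus log2 CPM at time 1 (horizontal axis) for the 32 genes (vertical axis, grouped by role), with 1 point for each of the 6 conditions. Circles are HN6 and triangles HN30; HSPA5, PDIA4, HYOU1 and MANF lie to the right of 0 in all 6, and the HN6 NC point lies at -1.63 for DNAJB9.

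Genes around this core were read from 9 further lists with 145 genes, of which 143 were tested (DERL3 and NUPR1 were too low). None had an adjusted p under 0.05 after knockdown, and 7 were higher (4.90%) and 9 lower (6.29%) at an unadjusted P under 0.05, again near the 6.77% and 7.75% of all genes tested. With the siRNAs taken alone, 4 of the 143 (2.80%) had an adjusted p under 0.05 with siFAT1-1 and 18 (12.6%) with siFAT1-2, beside the 3.25% and 11.8% of all genes tested. With siFAT1-2 they were spread over 7 of the 9 lists, with 4 in the list of other thiol oxidoreductases and folding factors, 4 in that of other genes of ER-associated degradation and 3 in that of the cytosolic heat shock response. The list of other thiol oxidoreductases and folding factors had 3 of 22 in each direction. Its gene of smallest P, ERO1A, which oxidizes the disulfide isomerases, was at 153 and 87.4 CPM with NC in HN6 and 163 to 229 CPM after knockdown, and at 128 and 183 CPM with NC in HN30 and 203 to 469 CPM after knockdown. The groups did not overlap in either line, and the log2 fold change was 0.94 (SE 0.242, adjusted p = 0.115).

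The translocon list had 1 higher and 2 lower of 17. SRPRA, a subunit of the receptor that docks ribosomes at the ER, was at 256 and 326 CPM with NC and 110 to 215 CPM after knockdown in HN6, and at 179 and 222 CPM with NC and 106 to 171 CPM in HN30, with a log2 fold change of -0.74 (SE 0.190, adjusted p = 0.115). Of 15 genes of ER to Golgi transport 2 were lower, with SURF4, a cargo receptor, at -0.48 (adjusted p = 0.174). Of 22 other genes of the integrated stress response 1 was higher, ATF3, at 1.14 (SE 0.368, adjusted p = 0.181). It was at 45.6 and 44.5 CPM with NC in HN6 and 41.1 to 143 CPM after knockdown, with 2 libraries below both NC libraries, and at 16.4 and 17.2 CPM with NC in HN30 and 46.4 to 74.8 CPM after knockdown. Of 20 other genes of ER-associated degradation 1 was higher, EDEM3, at 1.16 (adjusted p = 0.262), whose NC libraries in HN6 were at 21.9 and 3.21 CPM.

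The other 4 lists held few genes with such a P after knockdown. Of the 19 genes of the N-glycan precursor 1 was higher and 1 lower, the latter DPM2 at -0.49 (adjusted p = 0.264), and of the 3 other kinases of eIF2 1 was lower, EIF2AK4 at -0.49 (adjusted p = 0.215). None of the 12 subunits of oligosaccharyltransferase, which transfers the glycan that GANAB later trims, had an unadjusted P under 0.05, the smallest being that of OSTC (0.26, adjusted p = 0.511). The same held for the 13 genes of the cytosolic heat shock response, with HSP90AA1 at 0.61 (adjusted p = 0.348).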

How the data were processed

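Cells were harvested 24 h after transfection, and poly(A) libraries were sequenced as paired reads on a NovaSeq. Reads with poly-N, PCR duplicates and reads of low quality had been discarded before mapping to hg38, and the authors deposited raw whole-number counts of each gene in the 12 libraries. The submitters' processing notes name HISAT2 and featureCounts. Versions, gene models and strand settings are not given in the sources used here. The sample titles name hairpins while the descriptions name siRNAs. They were mapped as siFAT1-1 and siFAT1-2.

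Members and lists were chosen with earlier results of these data known. All 32 genes are accounted for. Values in each library are given for GANAB, PRKCSH, the reporters of each branch and any gene with an unadjusted P under 0.05 for knockdown, for 1 siRNA, between the siRNAs or for the difference between the lines. Of each further list, the gene of smallest P is named.

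Tests used edgeR 4.0.16 (TMM, filterByExpr with a minimum count of 10, quasi-likelihood) in R 4.3.3 with the cell line as a term and Benjamini-Hochberg adjustment over 13887 genes. CPM carried TMM factors of 0.897 to 1.06. In the tests over both lines, P-values measure the spread of libraries around the terms for treatment and cell line. That spread includes differences in effect between the lines and, where the siRNAs were pooled, between the siRNAs. Within a line, and for the difference in effect between lines, they measure the spread between repeats at separate times. For time, they measure how the difference between repeats varied over the 6 conditions, taken as independent although the conditions of a line share their times. Alternatives were other scalings, no filter, limma 3.58.1 voom, DESeq2 1.42.0, a replicate block, no cell line term, within-line fits and leaving out libraries. On simulated data for FAT1 knockdown against NC, edgeR recovered 23% of genes changed by 1 and 84% of those changed by 2 on the log2 scale, among 13766 genes, with 6 false calls.

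By the labels, equal repeat numbers within a line share a time, which pairs these samples. Deviations of same-numbered libraries correlated at 0.0778, 0.219 and 0.242 in HN6 and at -0.0337, 0.405 and -0.0216 in HN30 across genes. Positions come from GENCODE 44 on GRCh38 and promoter windows from RefSeq on GRCh38.p14. Python 3.11.15 with pandas 2.3.3 and matplotlib 3.10.9 was used for summaries and plots.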

Additional observations from a re-analysis of the deposited data

Results flagged for a closer look

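In 4 of the 64 groups of 4 knockdown libraries that were examined (32 genes in 2 lines), 1 library lay far from the other 3 by Dixon's test, where chance flags about 1 in 20 groups. PDIA3 was at 778 CPM in HN6 siFAT1-1 of time 2 beside 655 to 673 CPM in the others. HYOU1 was at 270.2 CPM in HN6 siFAT1-2 of time 1 beside 549 to 617 CPM. SYVN1 was at 94.4 CPM in HN6 siFAT1-2 of time 2 beside 111 to 114 CPM, and at 70.0 CPM in HN30 siFAT1-1 of time 2 beside 78.7 to 80.4 CPM.

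CRELD2, an ER chaperone with an ER stress response element in its promoter window, lay above NC at time 1 and below it at time 2. Several of these differences were near 0. On the log2 scale, all 4 knockdown libraries were above the NC library of their line at time 1, with a mean of 0.37. The values were 1.038 with siFAT1-1 and 0.069 with siFAT1-2 in HN6, and 0.376 and 0.007 in HN30. All 4 were below it at time 2, with a mean of -0.18. In the same order the values were -0.021, -0.46, -0.207 and -0.029. The NC library itself was higher at time 2, by 1.12 in HN6 and 0.49 in HN30, which enters these values. How many of all genes tested showed this pattern was not counted. The difference between the times was not tested.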

How the results depend on the processing

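Of 288 log2 fold changes (32 genes in FAT1 knockdown against NC under 9 alternatives), 271 kept their direction and their side of the threshold, 16 changed sign and 1 lost its call, that of GANAB. The 16 belonged to genes within 0.115 of 0 in the reported fit. With DESeq2's size factors PRKCSH was at 0.0251 and EIF2AK3 at 0.0185, with the DESeq2 test at 0.0251 and 0.0189. EIF2AK3 was at 0.0248 with limma-voom. With the replicate block PRKCSH was at 0.00416 and EIF2AK3 at 0.00656, and with no cell line term at 0.0040 and 0.0402. With total counts as library sizes PRKCSH was at 0.0729, EIF2AK3 at 0.0663, PDIA6 at 0.0201 and ATF6 at 0.0386. Without both HN6 siFAT1-2 libraries PRKCSH was at 0.0382, P4HB at 0.0368, DNAJB9 at -0.0421 and GANAB in siFAT1-1 against siFAT1-2 at -0.13.

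GANAB ran from 1.11 to 1.34 over these alternatives, with adjusted p = 0.0355 and a log2 fold change of 1.28 with the replicate block and 3.04e-06 with DESeq2, and lost its call only with no cell line term (adjusted p = 0.679) among them. Adjusted calls among the 32 genes with no cell line term were 0 for knockdown, 0 for siFAT1-1, 0 for siFAT1-2 and 0 for siFAT1-1 against siFAT1-2, and genes with an unadjusted P under 0.05 numbered 1, 2, 0 and 2. With total counts 1 gene had such a P for knockdown. With the replicate block 8 did for siFAT1-2. Without both HN6 siFAT1-2 libraries 2 did for siFAT1-2 and 9 for time, and 1 adjusted call remained for siFAT1-1 against siFAT1-2. DESeq2 gave 1 adjusted call within HN6, 1 within HN30 and 5 for time. With only the 6 libraries of a line, 1 gene had an unadjusted P under 0.05 in HN6 and 1 in HN30. The block changed no other call of a count by over 1.5 times. Apart from siFAT1-2 with the block and time with DESeq2, given above, the share of all genes tested in these fits was not counted.

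With 1 library at a time removed, there were 0 to 1 adjusted calls and 1 to 4 genes with an unadjusted P under 0.05 for knockdown, 0 to 1 and 3 to 8 for siFAT1-1, 1 to 2 and 2 to 9 for siFAT1-2, 0 to 4 and 4 to 10 for siFAT1-1 against siFAT1-2, 0 to 4 and 1 to 8 within HN6, 0 to 1 and 2 to 4 within HN30, 0 to 3 and 0 to 4 for the difference between the lines, and 8 to 14 for an unadjusted P under 0.05 for time. HN30 against HN6 kept 17 to 21 adjusted calls. Signs changed for PRKCSH (-0.14 to 0.0840), PDIA3 (-0.0438 to 0.15), PDIA6 (-0.12 to 0.0135), HSPA5 (-0.0182 to 0.43), DNAJB9 (-0.23 to 0.33), DNAJC3 (-0.0198 to 0.44), CRELD2 (-0.13 to 0.27), SYVN1 (-0.0259 to 0.20), EIF2AK3 (-0.14 to 0.19), ATF6 (-0.13 to 0.0485), TRIB3 (-0.0863 to 0.30) and ASNS (-0.0326 to 0.56). The causes were not tested. With 2 repeats a condition, the standard errors of 0.134 to 0.378 in these genes set how small a change could be seen.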
